A study of Mus musculus with 3 samples.

Results

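The genes described here are 34 transcripts that mark the yolk sac and its visceral endoderm, of 24062 gene symbols counted in the rostrum of the E9 mouse embryo. They were chosen by name from the same comparison, with its fold changes known, and cover apolipoproteins, secreted serum proteins, lipid handling, an endocytic receptor complex, membrane proteins and endoderm transcription factors. All 34 symbols had a row. RNA came from the rostrum, which is the front of the head, of embryos with 18 to 22 somites. In *tuft*, embryos were homozygous for a spontaneous nonsense mutation of *Tet1*, a methylcytosine dioxygenase, that arose in the 3H1 colony, and had a neural tube defect. Wild type was the 3H1 Balb background strain. For each genotype, RNA of 3 embryos was pooled into 1 library, so no value carries a replicate error and no difference between genotypes was tested. The records list 2 *tuft* samples, and the column of *tuft* counts could belong to either or to both together.

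The visceral endoderm is the epithelium on the outside of the early embryo and of the yolk sac. It takes up maternal protein by endocytosis, assembles lipoproteins and secretes plasma proteins before the liver does so, under transcription factors that hepatocytes also use. The yolk sac surrounds the embryo and is not part of the rostrum. Several of these genes are also used elsewhere in the embryo, such as *Sox17* in endothelium, *Gata4* and *Gata6* in the heart and *Apoe* in many tissues.

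The *tuft* library stood apart in depth and coverage. Counts on genes summed to 6433067 in *tuft* and 14251942 in wild type, a ratio of wild type to *tuft* of 2.22, and 11795 and 16914 genes had a count. *Tuft* lacked any count for 542 (5.36%) of the 10121 genes with at least 100 wild-type counts, which concerns many values below. *Tet1* itself had 32 *tuft* counts against 435 in wild type. The 17 head tissue markers were all detected in wild type and 16 of them in *tuft*, with a summed level of 1470 counts per 1000000 gene counts (CPM) in *tuft* and 1140 CPM in wild type. Of these 17, 2 (11.8%) were called lower and 5 (29.4%) higher by the rule given below, against 29.8% and 17.4% of all genes. The 3 with the most wild-type counts, *Lhx2*, *Otx2* and *Sox2*, had fold changes of 1.05, 1.37 and 0.958, whereas the whole list ran from 0.0150 for *Rax* to 6.43 for *Emx2*, with *Hesx1* at 0 and 36 counts.

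As a group, the yolk sac genes were far lower in *tuft*. They summed to 2463 counts in *tuft*, 0.0383% of the library (95% Clopper-Pearson interval 0.0368 to 0.0398), and to 49098 counts in wild type, 0.345% (0.341 to 0.348). In bulk RNA, fewer cells of a type and less RNA per cell cannot be told apart. Fold changes are *tuft* over wild type after scaling by the trimmed mean of M-values (TMM), with a 95% Clopper-Pearson interval of the counts. These intervals cover counting error only, since each genotype is 1 pooled library. Reads carry no molecular identifiers, so repeated reads of 1 molecule count separately and the intervals can be too narrow even for that error. A gene was called lower or higher when its whole interval lay beyond 2-fold. Of the 34 genes, 29 were called lower, none was called higher, 4 were not called and *Alb* had no count in either library. Among all 13979 genes with at least 10 counts over both libraries, 29.8% were called lower and 17.4% higher. Because the genes were named from this contrast, nothing is read from their count. Of the 33 genes that passed the minimum, 18 had under 10 counts in *tuft* and passed through wild type.

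The median log2 fold change of the 33 genes was -4.17, against -0.46 for all genes tested, with counts of 0 set to the limit of 3 counts that a count of 0 leaves room for. That limit is 0.466 CPM in *tuft* and 0.21 CPM in wild type. Folds written as at least a value rest on it, and the Clopper-Pearson interval used for the calls reaches somewhat farther, for *Apoa4* to 266-fold in place of 327-fold. The median gene, *Gata4*, had no count in *tuft*, so the median is an upper limit. The whole range ran from -8.35 for *Apoa4*, itself a limit, to 1.01 for *Amn*. The count of genes called lower was 26 beyond 4-fold, against 15.9% of all genes. It was 27 by a re-implementation of NOISeq-sim, the method the study used, whose calls may differ from those of the original program (17.9% of 17140 genes with a count were called lower), and 30 when libraries were scaled by their totals (37.8%).

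**Figure D1:**
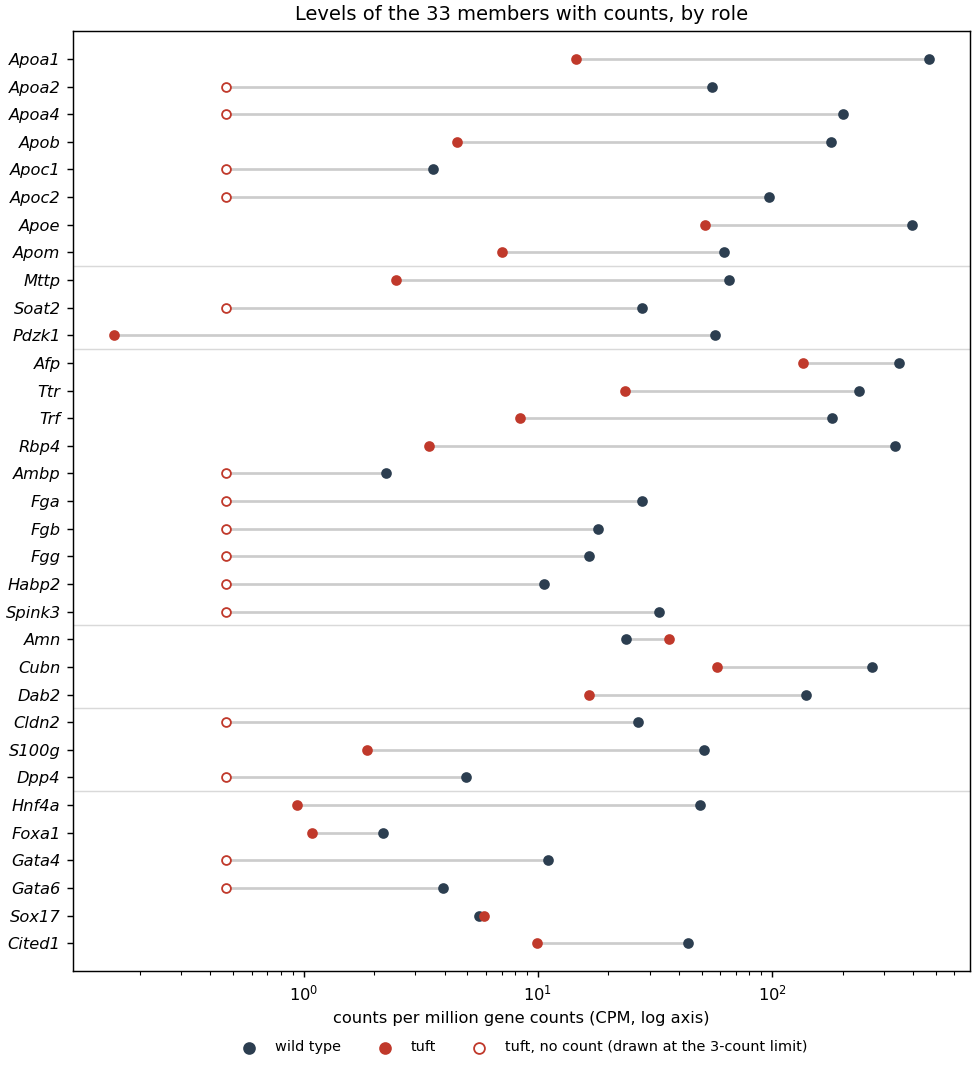
Levels of the 33 genes with counts in wild type (dark) and *tuft* (red), in CPM on a log axis, 1 library each, with lines between roles. Open circles mark the 15 genes with no *tuft* count, drawn at 0.466 CPM, the level of 3 counts, so that *Pdzk1* with its lone count of 0.155 CPM lies to their left. Of the drawn genes, *Amn* and *Sox17* are to the right in *tuft*.

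Promoters are shown for a few genes, to set their sequences beside the values that follow. RefSeq windows of 300 bases, from 250 before to 50 after the transcription start in GRCm38.p6, were found for 26 of the 34 genes. Both strands were searched for short cores of 4 families of endoderm factors. These were AAAGTCC for HNF4, GTTAAT (a half-site) for HNF1, TGTTTAC or TGTTTGC for FOXA and AGATAA or TGATAA for GATA. The letters of different families did not overlap in the windows printed. Matched letters are in capitals below, and a match is not evidence of binding. The HNF1 letters were in 9 of the 35 windows of these genes (25.7%) and in 7.10% of all 32851 windows. The FOXA letters were in 10 (28.6%) against 8.48%. HNF4 letters were in 2 (5.71%) against 4.21%, and GATA letters in 6 (17.1%) against 18.6%. Of the 10 genes with a window and no *tuft* count, 4 held HNF1, 2 FOXA, 3 GATA and 1 HNF4 letters. Of the 15 genes with *tuft* counts, 4 held HNF1, 7 FOXA, 3 GATA and 1 HNF4 letters.

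All 8 apolipoproteins were called lower, and 4 of them had no count in *tuft*. Apolipoproteins are the protein part of lipoprotein particles. *Apoa1*, the main protein of high-density lipoprotein, had 93 *tuft* counts (14.5 CPM) against 6655 (467 CPM) in wild type. That is a TMM fold change of 0.0407 (0.0328 to 0.0499), or 24.6-fold lower. In wild type *Apoa1* ranked 245 of all genes by counts, and in *tuft* 7285. *Apoa4*, a protein of intestinal and yolk sac lipoproteins, had no *tuft* count against 2856 in wild type, at least 327-fold lower. *Apoa2*, also of high-density lipoprotein, had none and 789 counts, at least 90.3-fold lower, and overlaps *Tomm40l*, which had 287 and 621. *Apoc2*, the activator of lipoprotein lipase, had none and 1378 counts, at least 158-fold lower. *Apoc1*, a small exchangeable apolipoprotein, had none and 51 counts, at least 5.84-fold lower. For *Apoc1* the limit is loose because the wild-type level was low, and NOISeq-sim did not call it.

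*Apob*, which forms the scaffold of lipoproteins rich in triglyceride, had 29 *tuft* counts against 2556 in wild type, 30.3-fold lower (21.0 to 45.3). Of the 4 apolipoproteins with *tuft* counts, the remaining 2 differed less. *Apoe*, a ligand of lipoprotein receptors with wide expression, had 333 and 5644 counts, 5.82-fold lower (5.21 to 6.52). *Apom*, a carrier of sphingosine-1-phosphate, had 45 and 885 counts, 6.75-fold lower (5.0 to 9.33). The ratio of *Apoa1* to *Apob* counts within a library, which no scaling affects, was 3.21 (2.09 to 5.05) in *tuft* and 2.60 (2.49 to 2.73) in wild type, so their intervals overlapped. *Apoe* to *Apoa1*, by contrast, was 3.58 (2.84 to 4.56) in *tuft* and 0.848 (0.818 to 0.879) in wild type.

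The *Apoa1* window, chr9:46228380-46228679 on the plus strand, holds the FOXA letters at 2 places upstream of the start, 88 and 75 bases before it, and GATA letters after it.
*Apoa1*: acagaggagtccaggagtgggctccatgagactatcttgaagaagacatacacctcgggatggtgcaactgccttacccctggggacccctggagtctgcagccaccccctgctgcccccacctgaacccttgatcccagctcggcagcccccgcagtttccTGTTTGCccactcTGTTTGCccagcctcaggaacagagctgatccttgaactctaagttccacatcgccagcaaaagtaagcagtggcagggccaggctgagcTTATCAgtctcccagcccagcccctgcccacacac

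Of the 8 apolipoprotein genes, 5 lie in clusters on chromosomes 9 and 7, and their neighbours can be set beside them. On chromosome 9 of GRCm38, *Apoa1* (46228630 to 46230469), *Apoc3*, *Apoa4* and *Apoa5* lie side by side. *Apoc3* had no *tuft* count against 30 in wild type, and *Apoa5* had none and 38. The next gene, *Zpr1*, had 336 and 2495 counts, a TMM fold of 0.392 (0.349 to 0.440), and *Bud13* beyond it 524 and 798, a TMM fold of 1.91 (1.71 to 2.14). On the other side, *Sik3* had 99 and 1139 counts, a TMM fold of 0.253 (0.204 to 0.311). On chromosome 7, *Apoc2*, *Apoc1* and *Apoe* lie between *Clptm1*, with a TMM fold of 0.481 (0.440 to 0.524), and *Tomm40*, with 0.577 (0.529 to 0.628). Genes farther out went both ways. *Bcam*, beyond *Tomm40*, was 18.5-fold higher (17.8 to 19.3). *Pafah1b2*, between *Sidt2* and *Sik3*, had a TMM fold of 0.761 (0.701 to 0.826) and was not called. Others were low. *Sidt2*, near *Sik3*, had a TMM fold of 0.178 (0.138 to 0.227), which overlaps the interval of *Apoe*, and *Relb*, beyond *Clptm1*, had no *tuft* count against 34 in wild type.

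All 3 genes of lipid assembly and uptake were called lower. *Mttp*, the microsomal transfer protein that loads lipid onto apolipoprotein B, had 16 *tuft* counts against 936 in wild type, 20.1-fold lower (12.3 to 35.3). *Soat2*, which makes the cholesteryl esters of lipoproteins, had none and 396, at least 45.3-fold lower. *Pdzk1*, a scaffold of the receptor for high-density lipoprotein, had 1 count and 815, a TMM fold of 0.00357 (9.03e-05 to 0.020). *Pdzk1* overlaps *Gpr89*, which had 1295 and 923 counts. *Apob* to *Mttp*, partners in lipoprotein assembly, had a count ratio of 1.81 (0.952 to 3.57) in *tuft* and 2.73 (2.53 to 2.95) in wild type, with overlapping intervals.

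Of the 11 serum protein genes, 9 were called lower, *Afp* was not called and *Alb* had no count. *Rbp4*, which carries retinol in plasma, had 22 *tuft* counts against 4782 in wild type, 74.6-fold lower (49.2 to 119). *Ttr*, which binds RBP4 and thyroid hormone, had 151 and 3357, 7.63-fold lower (6.48 to 9.05). The ratio of *Rbp4* to *Ttr* counts was 0.146 (0.0887 to 0.229) in *tuft* and 1.42 (1.36 to 1.49) in wild type, so the carrier and its partner did not keep their proportion. *Trf*, the iron carrier transferrin, had 54 and 2572 counts, 16.4-fold lower (12.5 to 21.8).

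The 3 chains of fibrinogen, the clotting protein, had no count in *tuft*. *Fga* had 397 counts in wild type, *Fgb* 257 and *Fgg* 237, at least 45.4-fold, 29.4-fold and 27.1-fold lower. Per kb of transcript these are 10.6, 11.0 and 9.54 CPM in wild type, close to each other. The genes lie together on chromosome 3 of GRCm38 (83007724 to 83049863). The next gene, *Plrg1*, a splicing factor, had 163 and 2291 counts, a TMM fold of 0.207 (0.176 to 0.243), and *Lrat* on the other side had no count in either library. Promoters of *Fga* (chr3:83025903-83026202, plus strand) and *Fgb* (chr3:83049814-83050113, minus strand) each hold HNF1 letters shortly before the start, 43 and 29 bases upstream, and that of *Fgb* also GATA letters. The window of *Fgg* holds none of the letters searched, nor does that of *Apoa4*.
*Fga*: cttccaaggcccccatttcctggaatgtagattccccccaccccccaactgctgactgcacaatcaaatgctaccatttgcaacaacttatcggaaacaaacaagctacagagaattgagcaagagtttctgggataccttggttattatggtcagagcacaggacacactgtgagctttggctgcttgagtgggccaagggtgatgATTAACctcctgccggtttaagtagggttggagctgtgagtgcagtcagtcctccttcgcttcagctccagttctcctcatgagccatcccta
*Fgb*: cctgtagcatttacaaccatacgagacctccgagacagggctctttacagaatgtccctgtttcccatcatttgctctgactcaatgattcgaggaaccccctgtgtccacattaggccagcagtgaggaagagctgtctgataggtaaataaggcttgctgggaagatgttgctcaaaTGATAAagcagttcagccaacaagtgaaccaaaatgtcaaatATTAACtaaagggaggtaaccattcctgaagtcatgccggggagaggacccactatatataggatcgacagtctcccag

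*Spink3*, a trypsin inhibitor, had no *tuft* count against 468 in wild type, at least 53.6-fold lower. *Habp2*, a serine protease that binds hyaluronan, had none and 151, at least 17.3-fold lower. *Ambp*, the precursor of alpha-1-microglobulin and bikunin, had none and 32, at least 3.66-fold lower. *Ambp* was no longer called beyond 4-fold or by NOISeq-sim.

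*Afp*, the alpha-fetoprotein of yolk sac and fetal liver, was the most abundant of these genes in *tuft*. It had 877 *tuft* counts (136 CPM) against 4940 (347 CPM) in wild type, a TMM fold of 0.517 (0.481 to 0.556). Scaled by library totals it was called lower, with a log2 fold change of -1.35 in place of -0.95. *Afp* made up 35.6% of the counts of these genes in *tuft* and 10.1% in wild type. The ratio of *Afp* to *Apoa1* counts was 9.43 (7.61 to 11.8) in *tuft* and 0.742 (0.715 to 0.770) in wild type, a 12.7-fold difference that no scaling can change. *Afp* to *Ttr* was 5.81 (4.88 to 6.95) and 1.47 (1.41 to 1.54). *Alb*, next to *Afp* on chromosome 5, encodes albumin and had no count in either library, nor had *Afm* on the other side of *Afp*, and *Ankrd17* beyond *Alb* had a TMM fold of 0.426 (0.380 to 0.476). The *Afp* window, chr5:90490464-90490763 on the plus strand, holds HNF1 letters and FOXA letters.
*Afp*: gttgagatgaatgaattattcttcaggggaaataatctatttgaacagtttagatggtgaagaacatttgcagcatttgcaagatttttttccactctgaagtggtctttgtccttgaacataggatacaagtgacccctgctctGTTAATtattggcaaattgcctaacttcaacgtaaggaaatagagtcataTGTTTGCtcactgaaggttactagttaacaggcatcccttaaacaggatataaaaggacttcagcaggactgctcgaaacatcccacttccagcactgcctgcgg

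The endocytic receptor complex was split. *Amn* encodes amnionless, which brings cubilin to the cell surface, *Cubn* encodes cubilin, and *Dab2* an adaptor for their uptake. *Amn* had 233 *tuft* counts against 338 in wild type, a TMM fold of 2.01 (1.69 to 2.38). That was higher, but not called beyond 2-fold. It passed a limit of 1.5-fold, as did 23.9% of all genes in the higher direction. *Cubn* had 375 and 3788 counts, 3.47-fold lower (3.12 to 3.87), and *Dab2* 107 and 1992, 6.39-fold lower (5.26 to 7.84). The ratio of *Amn* to *Cubn* counts was 0.621 (0.525 to 0.734) in *tuft* and 0.0892 (0.0796 to 0.0998) in wild type. Their windows, chr12:111270846-111271145 on the plus strand for *Amn* and chr2:13491827-13492126 on the minus strand for *Cubn*, hold none of the letters searched. They are shown as the pair of genes whose products act together and whose counts did not.
*Amn*: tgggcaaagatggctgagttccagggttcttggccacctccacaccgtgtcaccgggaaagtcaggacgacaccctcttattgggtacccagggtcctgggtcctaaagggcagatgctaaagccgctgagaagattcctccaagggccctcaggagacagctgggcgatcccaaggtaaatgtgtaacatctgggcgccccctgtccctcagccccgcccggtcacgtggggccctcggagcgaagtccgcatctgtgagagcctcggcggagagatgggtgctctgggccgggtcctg
*Cubn*: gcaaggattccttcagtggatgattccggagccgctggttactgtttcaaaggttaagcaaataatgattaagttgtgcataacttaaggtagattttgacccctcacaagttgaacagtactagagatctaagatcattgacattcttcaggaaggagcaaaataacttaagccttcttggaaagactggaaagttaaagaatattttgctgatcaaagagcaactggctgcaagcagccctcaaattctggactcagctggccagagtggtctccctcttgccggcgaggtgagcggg

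*Lrp2*, the giant receptor megalin that works with cubilin, had 330 *tuft* counts against 2609 in wild type, a TMM fold of 0.368 (0.327 to 0.413). The *Cubn* to *Lrp2* ratio was 1.14 (0.977 to 1.32) in *tuft* and 1.45 (1.38 to 1.53) in wild type.

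The 3 genes of membrane and mineral handling were called lower. *Cldn2*, a claudin that forms cation pores between epithelial cells, had no *tuft* count against 380 in wild type, at least 43.5-fold lower. *S100g*, the calcium-binding calbindin-D9k, had 12 and 730, 20.9-fold lower (11.9 to 40.6), and overlaps *Ctps2*, which had 238 and 276. *Dpp4*, a peptidase of the apical membrane, had none and 70, at least 8.01-fold lower.

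Of the 6 transcription factors, 4 were called lower. *Hnf4a*, the nuclear receptor that drives apolipoprotein and serum protein genes, had 6 *tuft* counts against 698 in wild type, 40.0-fold lower (18.3 to 109). *Gata4* had no *tuft* count against 157 in wild type, at least 18.0-fold lower, and *Gata6* none and 56, at least 6.41-fold lower. Both are zinc finger factors of endoderm and heart. *Cited1*, a transcriptional coactivator, had 64 and 624 counts, 3.35-fold lower (2.59 to 4.40). *Cited1* and *Cubn* were not called beyond 4-fold.

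*Foxa1* and *Sox17*, which act in definitive endoderm as well, had counts too low or too similar to be called. *Foxa1* had 7 *tuft* counts against 31 in wild type, a TMM fold of 0.658 (0.244 to 1.52). *Sox17* had 38 and 80, a TMM fold of 1.38 (0.914 to 2.06). Both intervals include no difference at this depth. *Sox17* to *Hnf4a* was 6.33 (2.66 to 18.3) in *tuft* and 0.115 (0.0898 to 0.145) in wild type.

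**Figure D2:**
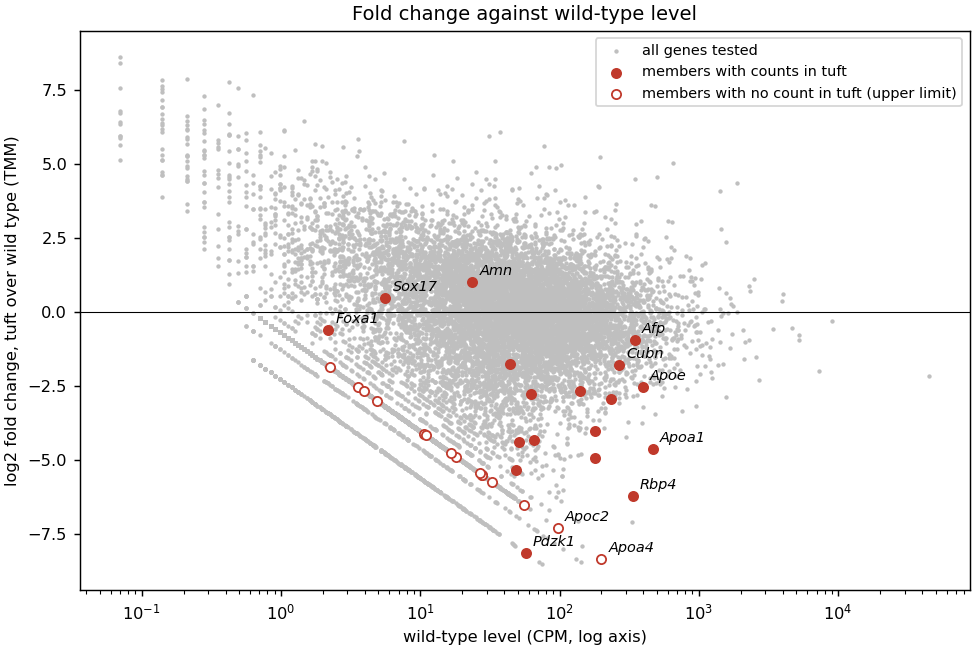
Log2 fold change (*tuft* over wild type, TMM) against wild-type CPM on a log axis, for all genes tested with a wild-type count (grey) and the yolk sac genes (red). Open circles are upper limits for genes with no *tuft* count. *Apoa1*, *Rbp4* and *Apoa4* lie at -4.62, -6.22 and at most -8.35, below most genes of like level, whereas *Afp* lies at -0.95 and *Amn* at 1.01.

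Levels can be compared between genes per kb of transcript. In wild type *Apoa1* had 451 CPM per kb, *Apoe* 286, *Rbp4* 270, *Ttr* 193 and *Afp* 166. In *tuft* the order was *Afp* with 65.4 CPM per kb, *Apoe* 37.3, *Amn* 21.5, *Ttr* 19.3 and *Apoa1* 14. With 1 library each, the order of neighbours has no replicate check.

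Genes without a count in *tuft* were set beside all genes of like wild-type count, since *tuft* lacked many weakly expressed genes. The shares are a description, because the yolk sac genes were named from this contrast. Of genes with 30 to 99 counts in wild type, 44.8% had none in *tuft*, as did 4 of the 6 yolk sac genes in that class. From 100 to 299 counts it was 15.9% of all genes and all 4 yolk sac genes. From 300 to 999 counts it was 3.22% and 5 of 12. From 1000 to 2999 counts, 3 of 2534 genes (0.118%) had none, and 2 of these 3 were *Apoa4* and *Apoc2*. No gene with 3000 or more counts in wild type lacked a count in *tuft*. Among all genes without a *tuft* count, *Apoa4* had the most wild-type counts, *Apoc2* the next and *Apoa2* ranked 6.

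**Figure D3:**
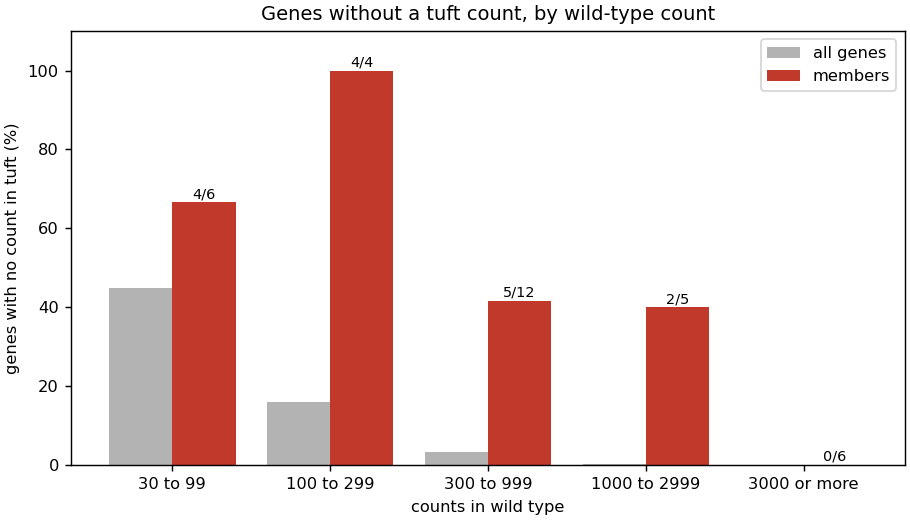
Share of genes with no count in *tuft* (%), for all genes (grey) and the yolk sac genes (red), by class of wild-type count. Numbers above the red bars give genes without a count over genes in the class. Among all genes the share drops from 44.8% to 0, and among the yolk sac genes it is 2 of 5 in the class from 1000 to 2999.

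The 15 yolk sac genes without a *tuft* count had a median of 257 counts in wild type and a median transcript length of 1815 bases. The 18 with *tuft* counts had medians of 1464 counts and 2398 bases, and all genes tested 358 counts and 3077 bases. A low wild-type count by itself makes a count of 0 more likely, so the lower median is partly set by the split. Single genes depart from the medians, such as *Apoa4* with 2856 wild-type counts. The part of level or length in the result was not tested.

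Further genes of the same pathways came from lists drawn up by function, with earlier results of these data known. Of 28 other secreted proteins of yolk sac and liver, 15 passed the minimum. Of these, 10 (66.7%) were called lower, against 29.8% of all genes, and none higher. No *tuft* count was found for 12 of the 15. These passed the minimum through wild type and could not be called higher. Among all genes, 71.1% of those with 10 to 29 wild-type counts and 44.8% with 30 to 99 had none in *tuft*. Nothing is read from these numbers. The antiplasmin gene *Serpinf2* had none and 329 counts, at least 37.7-fold lower, the plasminogen gene *Plg* none and 162, at least 18.5-fold, and the prothrombin gene *F2* none and 102, at least 11.7-fold. *F10*, clotting factor X, was almost level with 50 and 147 counts, a TMM fold of 0.990 (0.704 to 1.37). The serpin genes *Serpina1a*, *Serpina1b* and *Serpina1d* are near-identical copies and their counts are uncertain.

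Of 26 genes of lipoprotein receptors and lipid metabolism, 9 (34.6%) were called lower and none higher, near the 29.8% of all genes, with a median log2 fold change of -0.62. The genes of cholesterol synthesis *Hmgcs1* and *Sqle* had fold changes of 1.08 and 0.907. *Lrp1*, an endocytic receptor, had 499 and 6807 counts, a TMM fold of 0.213 (0.195 to 0.234), and the receptor *Lrp8* 0.241 (0.176 to 0.323). The receptor gene *Vldlr*, the transporter genes *Abca1* and *Abcg1* and the transfer protein gene *Pltp* had no *tuft* count and 152, 184, 158 and 139 wild-type counts. *Srebf2*, the regulator of cholesterol synthesis, had 3815 and 5362, a TMM fold of 2.07 (1.99 to 2.16). *Npc2*, a lysosomal cholesterol carrier, had 571 and 3353, a TMM fold of 0.496 (0.453 to 0.542), and its partner *Npc1* 0.312 (0.246 to 0.391).

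Of 13 genes of the megalin pathway and lysosome, 6 (46.2%) were called lower and 1 (7.69%) higher, against 29.8% and 17.4% of all genes. *Vil1*, a protein of microvilli, had no *tuft* count against 600 in wild type, at least 68.7-fold lower. *Fcgrt*, the neonatal antibody receptor, had 229 and 61, 10.9-fold higher (8.21 to 14.7). The lysosomal proteases *Ctsl* and *Ctsb* had fold changes of 0.763 (0.716 to 0.813) and 0.698 (0.651 to 0.748), and *Lamp1*, a lysosomal membrane protein, 0.260 (0.235 to 0.286). *Lgmn* and *Ctsz*, also lysosomal proteases, had 0.238 (0.206 to 0.274) and 0.352 (0.317 to 0.390), and the megalin chaperone *Lrpap1* 0.221 (0.187 to 0.259). In the other direction, the lysosomal genes *Lamp2* and *Ctsd* had 2.23 (1.96 to 2.53) and 1.25 (1.18 to 1.33), neither called.

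Of 17 other endoderm transcription factors, 12 passed the minimum. Of these, 5 (41.7%) were called lower and 2 (16.7%) higher, against 29.8% and 17.4% of all genes. No *tuft* count was found for 5 of the 12. These passed through wild type and could not be called higher, so nothing is read from the shares. *Sox7*, a factor of endoderm and endothelium, had 8 and 125 counts, a TMM fold of 0.186 (0.0787 to 0.379). *Hhex*, of foregut and liver bud, had none and 62. *Foxa2*, which also marks the floor plate, had 127 and 189, a TMM fold of 1.96 (1.55 to 2.46), and *Nkx2-1*, which also marks the ventral forebrain, 766 and 295, 7.56-fold higher (6.60 to 8.68).

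Lists of markers of other tissues are given beside the 29.8% of all genes called lower and the 17.4% called higher. The share called lower was 71.4% of trophoblast, 27.3% of parietal endoderm, 36.4% of cardiac, 33.3% of endothelial, 30.0% of erythroid and 33.3% of foregut and surface epithelium markers tested. All but the first lay near that of all genes under TMM. Their median log2 fold changes were, in that order, -0.63, -1.33, -1.19, 0.52 and 0.38, against -0.46 for all genes. With libraries scaled by their totals, 5 of 11 parietal endoderm, 7 of 11 cardiac and 5 of 9 endothelial markers were called lower, against 37.8% of all genes. For these lists the nearness therefore depends on the scaling. Of the 14 trophoblast markers, 7 passed the minimum and 5 were called lower, with a summed level of 26.7 CPM in *tuft* and 45.8 CPM in wild type. No *tuft* count was found for 4 of the 7. These passed through wild type and could not be called higher, so nothing is read from the larger share. *Prl3d1*, a hormone of trophoblast giant cells, had no *tuft* count against 225 in wild type, and *Prl3b1*, *Plac1* and *Elf5* had none and 29, 27 and 26. *Tfap2c*, which head ectoderm uses as well, had 161 and 210, a TMM fold of 2.23 (1.81 to 2.75), and *Prl2c2* had 10 and 92. Of the 11 parietal endoderm markers, 3 were called lower and 3 higher, with sums of 1890 and 1630 CPM. Most of the *tuft* sum came from *Col4a1* and *Sparc*, with 6285 and 2972 of 12127 *tuft* counts. The receptor gene *Pth1r* and the thrombomodulin gene *Thbd* had no count in *tuft* and 389 and 135 in wild type, and the laminin gene *Lamb1* had a TMM fold of 0.0954 (0.0773 to 0.117). The matrix gene *Sparc* was 4.24-fold higher (4.0 to 4.48), the collagen gene *Col4a1* 3.11-fold (3.0 to 3.23) and the activin antagonist gene *Fst* 3.86-fold (3.16 to 4.72), while *Col4a2* and *Lamc1* had fold changes of 0.647 and 0.572.

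Of the 16 cardiac markers, 11 passed the minimum, 4 were called lower and 1 higher, with sums of 26.9 and 41.8 CPM. No *tuft* count was found for 8 of the 11, which passed through wild type and could not be called higher. *Hand1* had no *tuft* count against 118 in wild type, and *Nkx2-5* had none and 1. *Mef2c* was 3.70-fold higher (2.91 to 4.72), and *Isl1* had 11 and 77 counts. Of the 9 endothelial markers, 3 were called lower and 1 higher, with sums of 180 and 425 CPM, and *Pecam1* had none and 443 counts. Among these, *Cdh5*, *Kdr* and *Egfl7* had fold changes of 0.341, 0.275 and 0.437 and *Emcn* was 4.22-fold higher (3.37 to 5.29). Of the 12 primitive erythroid markers, 10 passed the minimum, 3 were called lower and 4 higher, with sums of 35700 and 3320 CPM, most of it from the embryonic globins *Hba-x* and *Hbb-y*, which were 17.1-fold and 32.4-fold higher. *Hbb-bh1* had a TMM fold of 1.08, *Tal1* 2.37 and *Alas2* 0.215, and *Gata1* had no *tuft* count and 125 in wild type. Of the 11 markers of foregut and surface epithelium, 9 passed the minimum, 3 were called lower and 2 higher, with sums of 1030 and 826 CPM, *Krt8* being 3.14-fold (2.95 to 3.34) and *Shh* 5.52-fold higher (4.78 to 6.38). The fold changes of *Krt18* and *Cldn6* were 1.93 and 1.57, and those of *Cdh1*, *Cldn7* and *Krt19* 0.229, 0.173 and 0.187. The part of the tissue taken in the result for the yolk sac genes was not tested, and with 1 pool per genotype it cannot be told apart from the genotype.

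**Figure D4:**
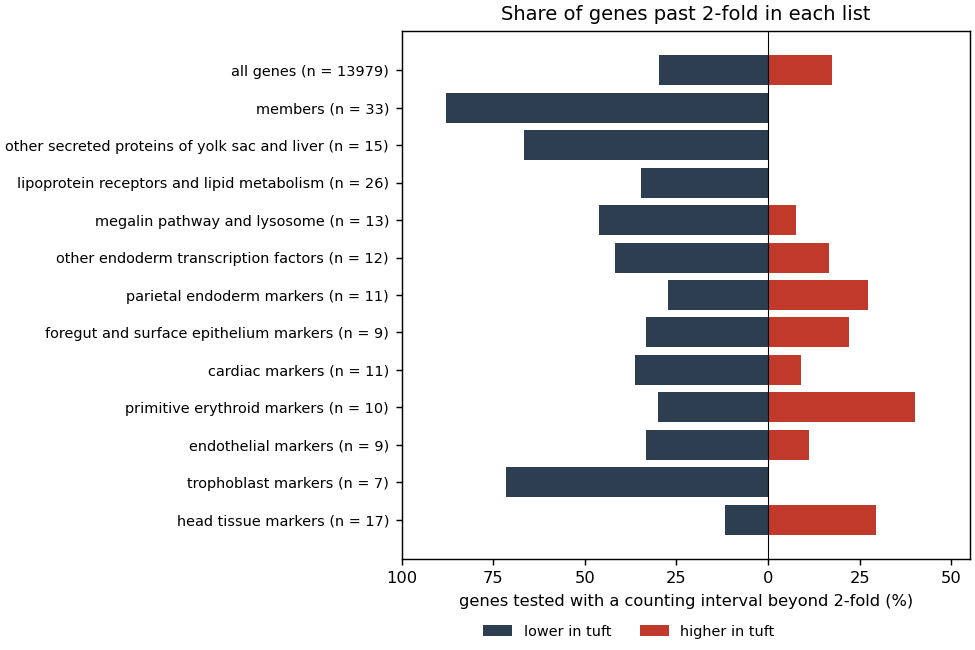
Share of genes tested (%) with a counting interval beyond 2-fold, lower in *tuft* to the left and higher to the right, for all genes, the yolk sac genes (labelled members) and 11 lists drawn up by function, with the number tested. The bar of the yolk sac genes reaches 87.9% lower, against 29.8% of all genes, and that of the head tissue markers 11.8%. Both the yolk sac genes and the lists were chosen with earlier results of these data known.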

How the data were processed

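Poly-A RNA of 3 pooled rostrums per genotype was read from a single end on an Ion Proton. The authors trimmed and filtered reads, aligned them to mm10 with TopHat2 2.0.14 and Bowtie2 2.2.5 and obtained gene counts with htseq-count, so the deposited values are raw counts. The counting mode and strand setting are not given in the sources used here, so how reads of overlapping genes were assigned is not known. Entries marked ambiguous, which count for no gene, made up 0.667% in tuft and 0.526% in wild type. Columns were assigned to genotypes by name, and the htseq-count summary lines were left out. Alignments that were not unique made up 59.2% of entries in tuft and 51.4% in wild type, and genes with near-identical copies are the most exposed.

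The members and lists were chosen with earlier results of these data known. The TMM factor (edgeR 4.0.16, R 4.3.3) of tuft relative to wild type was 0.761. Intervals were computed in Python 3.11.15 with scipy 1.17.1 and tested on simulated data. The simulated counts held only the counting error that the intervals assume, so the test checks the computation alone. Its changed genes had over 100 expected tuft counts, more than most members have. With 1 library per genotype, no test by edgeR could be made. A fold rule replaced NOISeq-sim, whose noise comes from libraries drawn from the same counts. NOISeq-sim was re-implemented as an alternative with P_NOI above 0.95. Other alternatives were library totals, the upper quartile, DESeq2 1.42.0 size factors, minima of 1 or 100 counts and limits of 1.5-fold and 4-fold. A TMM factor without *Rn45s* and the embryonic globins, and the group without 8 genes also used in other tissues, were added after the data had been seen. Named genes are all members, the most abundant genes of each list, genes called with at least 100 counts in a library, neighbours in gene clusters and *Tet1*. Other list genes were named after their values were seen. Some list genes that fall under this rule are not reported here. Positions and promoters came from RefSeq for GRCm38.p6, the assembly of mm10. Of the 34 symbols, 33 matched directly and *Spink3* by its synonym. Transcript lengths are those of the longest coding transcript in GENCODE vM1.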

Additional observations from a re-analysis of the deposited data

How the results depend on the processing

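The number of yolk sac genes called lower was 29 and ranged from 24 of 25 genes, without the 8 genes also used in other tissues (*Afp*, *Apoe*, *Dab2*, *Cited1*, *Foxa1*, *Gata4*, *Gata6* and *Sox17*), to 30, with library totals or a 1.5-fold limit. Except for *Amn*, all genes not called are among these 8. Their removal thus sets the share of 24 of 25, and nothing is read from it or from the median without them. The share of all genes called lower at the 1.5-fold limit is not given here. The median log2 fold change ranged from -4.76, without these 8 genes, to -4.12, with DESeq2's size factors. No member changed direction under the 4 other normalizations. Library totals shifted every log2 fold change by -0.39, and with it the median of all genes to -0.85. The number called higher was 0 at every setting except the 1.5-fold limit, where it was 1, *Amn*. With library totals, 3 lists of other tissues had more than 1.5 times as many genes called lower. These were parietal endoderm with 5 of 11 in place of 3, cardiac with 7 of 11 in place of 4 and endothelial with 5 of 9 in place of 3. Over all genes, the share called lower was 37.8% in place of 29.8%. No paired analysis was possible because each genotype has 1 column of counts. For the same reason no library could be left out. Depth limits the genes with few wild-type counts, such as *Apoc1*, *Ambp*, *Dpp4* and *Gata6*, for which a count of 0 in *tuft* allows only a small fold change to be stated.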

Other observations

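Among genes next to the yolk sac clusters, the highest fold change was that of *Bcam*, the basal cell adhesion molecule, beyond *Apoe* on chromosome 7, with 17245 *tuft* counts against 2714 in wild type, 18.5-fold higher (17.8 to 19.3). Of the endoderm factors, *Eomes*, which also marks early trophoblast and the anterior visceral endoderm, had 63 *tuft* counts against 13 in wild type, 14.1-fold higher (7.69 to 28.0). Among head tissue markers, the eye field gene *Rax* had 2 and 389 counts, a TMM fold of 0.0150 (0.00181 to 0.0544), whereas *Six3* was 4.14-fold higher (3.81 to 4.50) and *Emx2* 6.43-fold higher (5.88 to 7.04). *Sox1*, *Fgf8* and *Twist1* were 3.16-fold, 3.33-fold and 3.14-fold higher. *Bcam* and *Eomes* were named after their values were seen.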
